A study of Bos taurus with 15 samples.

Results

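ACTG2, SMTN and MYADM are 3 of the 21665 genes measured by RNA sequencing in primary bovine foetal fibroblasts (BFFs), and all 3 were among the 14264 genes abundant enough to test. They were taken by name: ACTG2 (ENSBTAG00000015441.6) and MYADM (ENSBTAG00000018152.5) by identifier, and SMTN (ENSBTAG00000003100.6) through the symbol column of the study's list of genes raised by wild-type ARGFX, of which 232 rows, a part of the list, were used here. All 3 genes stand in that list, and the study placed them in a class of embryo genes that ARGFX, LEUTX or both raised. They were thus chosen by their fold changes over control with WT ARGFX, and possibly with LEUTX, and both are given below as a description without a test.

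The BFFs were grown out of the skin of a single foetus of 6 months and used at passage 4, so the samples, which the study calls biological replicates, share 1 donor. P-values measure the spread between samples of these cells and not between animals. Cells were electroporated with pSF-CMV-Puro-COOH, in which a CMV promoter drives the insert, and all groups received 4 μg/ml puromycin when the medium was changed at 24 h, with RNA taken after 72 h. The control group (4 samples) carried the empty plasmid. The other groups carried bovine WT ARGFX (4 samples), mutant ARGFX (3 samples) or LEUTX (4 samples). A further mutant sample, set aside by the study because it grouped with the WT ARGFX samples, was not analysed here. ARGFX and LEUTX are homeobox genes of the early embryo.

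The mutant construct has the allele of the ARS-UCD1.2 reference genome, which lacks 13 bases of the coding sequence. The deletion shifts the reading frame and ends the protein before the homeodomain, and the mutant insert stops there, with the linker and tag joined on. The stretch around the deletion is shown, with the bases that the mutant lacks in capitals (positions 97 to 109 of the study's WT sequence, counted from 1 at its start).
WT ARGFX: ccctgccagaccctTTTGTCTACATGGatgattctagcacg
mutant ARGFX: ccctgccagaccctatgattctagcacg

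Expected counts summed to between 25947911 and 28163565 in the control samples, from 31359218 to 35178524 with WT ARGFX, from 28519622 to 41554242 with mutant ARGFX and from 26917853 to 35454192 with LEUTX. The transfected genes were abundant in the groups labelled with them. ARGFX had 3039 to 4506 CPM (counts relative to library size, corrected with TMM factors) with WT ARGFX and 3408 to 6606 CPM with mutant ARGFX, against at most 1 count in any control sample. LEUTX had 1533 ± 209 CPM (SD, n = 4) in the LEUTX samples, against at most 1 count in any control sample. A few counts stood elsewhere: LEUTX had expected counts of 7.19, 11.3 and 1.03 in the mutant ARGFX samples, against 34831 to 61310 in the LEUTX samples, and ARGFX had 5.67 in LEUTX replicate 2. Because their columns share a header, 2 WT ARGFX samples cannot be given a replicate number and are called a and b. WT ARGFX sample b stood apart from its group: its root mean square difference from the other WT ARGFX samples was 0.600 (log2 CPM, 14264 genes), where the other 3 had 0.423 to 0.436. The control samples were nearly as far from each other, at 0.508 to 0.582.

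ACTG2 encodes the gamma isoform of smooth muscle actin, which polymerizes into the thin filaments that myosin pulls on in visceral smooth muscle. SMTN encodes smoothelin, a protein that binds actin filaments and marks contractile smooth muscle cells. MYADM encodes a membrane protein of lipid rafts that takes part in the organization of the cortical actin skeleton and in cell spreading. Skin fibroblasts are not smooth muscle, but they can switch on smooth muscle actins and other contractile genes when they become myofibroblasts. Of 11 fibroblast markers, 6 could be located by symbol (COL1A1, COL1A2, COL3A1, COL5A1, POSTN and FBN1), and together they made up 26610 to 33274 CPM in the control samples, so the labelled cell type had its markers. Of 10 smooth muscle and pericyte markers, 4 could be located (ACTA2, ACTG2, LMOD1 and CSPG4). Defining smooth muscle markers such as MYH11, CNN1 and DES could not be matched to an identifier through the sources used. They were not analysed here, nor were markers of keratinocytes, endothelium, skeletal muscle, fat or immune cells.

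ACTG2 was lowest in the control samples and far higher with LEUTX than in any other group. The control samples had 295, 401, 234 and 295 CPM (306 ± 69.7, SD, n = 4). WT ARGFX replicates 1 and 2 had 470.5 and 468 CPM, sample a had 489.6 and sample b had 675 (526 ± 99.8, n = 4). The mutant ARGFX samples had 427, 463 and 385 CPM (425 ± 39.1, n = 3). The LEUTX samples had 1649.8, 2033, 2002 and 2179 CPM (1966 ± 225, n = 4). Each LEUTX sample was thus above every other sample, and each WT ARGFX sample was above each mutant and control sample. Of the mutant samples, replicate 3 alone fell below a control sample, replicate 2.

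SMTN followed the same order of groups at a lower abundance. It had 27.4, 20.01, 29.98 and 25.4 CPM in control (25.7 ± 4.23, n = 4) and 48.9, 51.5, 55.5 and 45.8 CPM in WT ARGFX replicates 1 and 2 and samples a and b (50.4 ± 4.11, n = 4). With mutant ARGFX it had 37.9, 35.2 and 40.4 CPM (37.8 ± 2.57, n = 3), and with LEUTX 93.0, 89.4, 73.9 and 64.9 CPM (80.3 ± 13.2, n = 4). No group overlapped another, and the order was control, mutant ARGFX, WT ARGFX, LEUTX.

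MYADM had a smaller relative spread than ACTG2 and SMTN in control, WT ARGFX and LEUTX, and a larger one with mutant ARGFX. The control samples had 129.5, 139, 109 and 109 CPM (122 ± 14.8, n = 4), and the WT ARGFX samples 216, 203, 200.2 and 221 CPM in the same order as above (209.96 ± 9.90, n = 4). The mutant ARGFX samples had 173, 197 and 154 CPM (175 ± 21.1, n = 3), and the LEUTX samples 293, 339, 326 and 353 CPM (328 ± 25.8, n = 4). Again no group overlapped another, in the same order. Read against all tested genes, a complete separation upward was found in 12.9% for WT ARGFX over control, 20.5% for LEUTX over control, 11.6% for mutant ARGFX over control, 17.2% for LEUTX over WT ARGFX and 23.6% for LEUTX over mutant ARGFX. In bulk RNA, a larger share of cells with these transcripts and more transcript per cell cannot be told apart.

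**Figure D1:**
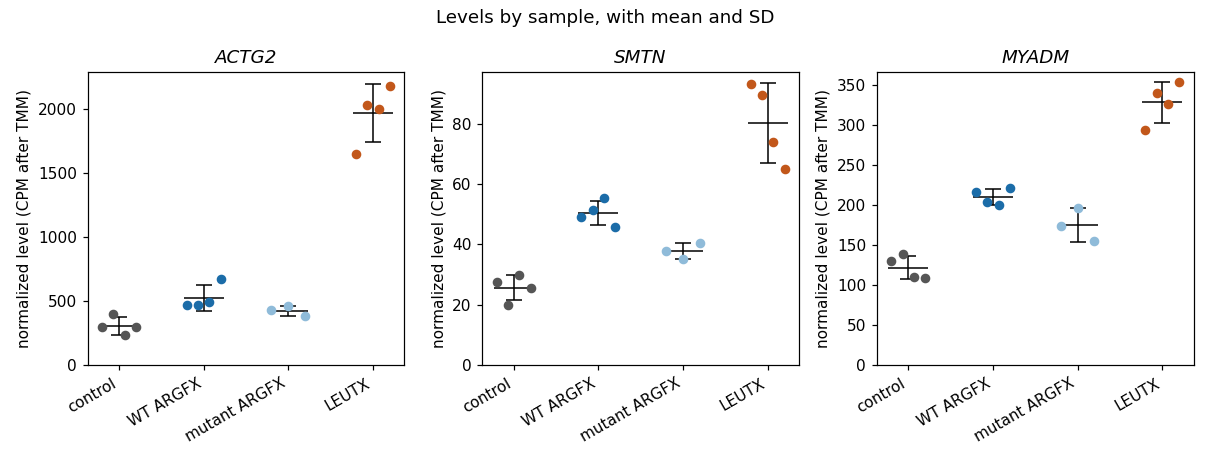
Normalized levels (CPM after TMM, linear axis from 0) of ACTG2, SMTN and MYADM in each of the 15 samples by group, with black bars for the mean and SD. LEUTX samples are the highest for each gene, and the mutant ARGFX means of 425, 37.8 and 175 CPM lie between those of control and WT ARGFX.

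With WT ARGFX, the contrast that chose the genes, log2 fold changes over control were 0.78 (SE 0.156) for ACTG2, 0.97 (SE 0.128) for SMTN and 0.79 (SE 0.0989) for MYADM. Without sample b, ACTG2 was at 0.63. With LEUTX, which may also have chosen them, they were 2.68 (SE 0.165, 6.42-fold), 1.64 (SE 0.130, 3.12-fold) and 1.43 (SE 0.1002, 2.69-fold). The WT ARGFX responses of the 3 genes lay close together, whereas with LEUTX the response of ACTG2 was the largest. In order of log2 fold change with LEUTX among 14264 genes, ACTG2 was at position 200, SMTN at 471 and MYADM at 602, and with WT ARGFX they were at 642, 350 and 627. As background, 6.15% of tested genes were called up with WT ARGFX and 12.8% with LEUTX, where a call needs an adjusted p under 0.05 and a fold change over 1.5. Of the 232 genes of the WT ARGFX list used here, 53.4% were called up with LEUTX and 6.47% down, against 14% of tested genes called down.

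LEUTX against WT ARGFX was not used to choose the genes, although it shares both groups' samples with the contrasts that were or may have been. All 3 genes were higher with LEUTX and all were called, against 9.82% of tested genes and 15.5% of the WT ARGFX list. ACTG2 was 1.90 higher on the log2 scale (SE 0.160, 3.74-fold, adjusted p = 7.99e-08, edgeR quasi-likelihood test), and 2.07 higher without sample b. SMTN rose by 0.67 (SE 0.126, 1.59-fold, adjusted p = 0.00043) and MYADM by 0.64 (SE 0.0985, 1.56-fold, adjusted p = 6.12e-05), both just over the fold change threshold. In the other direction, 28% of that list was called lower with LEUTX than with WT ARGFX, against 11.8% of tested genes.

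Mutant ARGFX against control shares the control samples with the contrasts over control given above. Low control values, and so a higher level with mutant ARGFX, were thus favoured by the choice of genes. The interval and p-values here are not independent of that choice. MYADM (log2 fold change 0.52, SE 0.106, adjusted p = 0.0052) and SMTN (0.56, SE 0.137, adjusted p = 0.0168) passed the adjusted p, as did 4.26% of tested genes in the upward direction. Their folds of 1.44 and 1.47 were under 1.5, so neither was called, against 1.26% of tested genes and 32.3% of the WT ARGFX list called up. ACTG2 had a log2 fold change of 0.47 (95% interval 0.12 to 0.82, adjusted p = 0.0832). This value turned on single libraries: without control replicate 2, the control sample with most ACTG2, it was 0.63 with an adjusted p of 0.0194, and without WT ARGFX sample b it was 0.47 with 0.0308. The other fits that left out 1 sample did not pass: the log2 fold change was lowest without control replicate 3 (0.36, adjusted p = 0.162), and the adjusted p was highest without mutant replicate 2 (0.41, adjusted p = 0.215). SMTN had adjusted p-values of 0.0579 without mutant replicate 1 and 0.0855 without mutant replicate 3. The fold threshold was crossed the other way too: SMTN was called up without control replicate 1, control replicate 3 or mutant replicate 2 (log2 0.59, 0.64 and 0.61), and MYADM without control replicate 2 or mutant replicate 3 (0.59 and 0.59).

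WT ARGFX against mutant ARGFX reuses the WT ARGFX samples whose high values chose the genes, so a higher level with WT was favoured by the choice, and the intervals and p-values here are not independent of it. Each of the 3 genes had a higher mean with WT, and each WT ARGFX sample lay above each of the 3 mutant samples used, which held for 6.57% of tested genes. The mutant sample set aside for its likeness to WT ARGFX is not among them. None was called, as against 0.386% of tested genes and 10.8% of the list. The log2 fold changes were 0.31 for ACTG2 (95% interval -0.05 to 0.66, adjusted p = 0.554), 0.41 for SMTN (0.12 to 0.71, adjusted p = 0.187) and 0.26 for MYADM (0.04 to 0.49, adjusted p = 0.321). Without WT ARGFX sample b, the ACTG2 value was 0.16. On the numbered samples alone, without samples a and b, it was 0.14, and on these with the replicate number as a block it was 0.08.

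LEUTX against mutant ARGFX shares no sample with the WT ARGFX contrast, but it shares the LEUTX samples with LEUTX against control, which may have chosen the genes too. ACTG2 rose 4.63-fold (log2 2.21, SE 0.1801, adjusted p = 5.10e-08), SMTN 2.12-fold (log2 1.08, SE 0.140, adjusted p = 1.08e-05) and MYADM 1.88-fold (log2 0.91, SE 0.108, adjusted p = 4.71e-06). All 3 were called, against 10.3% of tested genes called up and 26.3% of the WT ARGFX list.

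**Figure D2:**
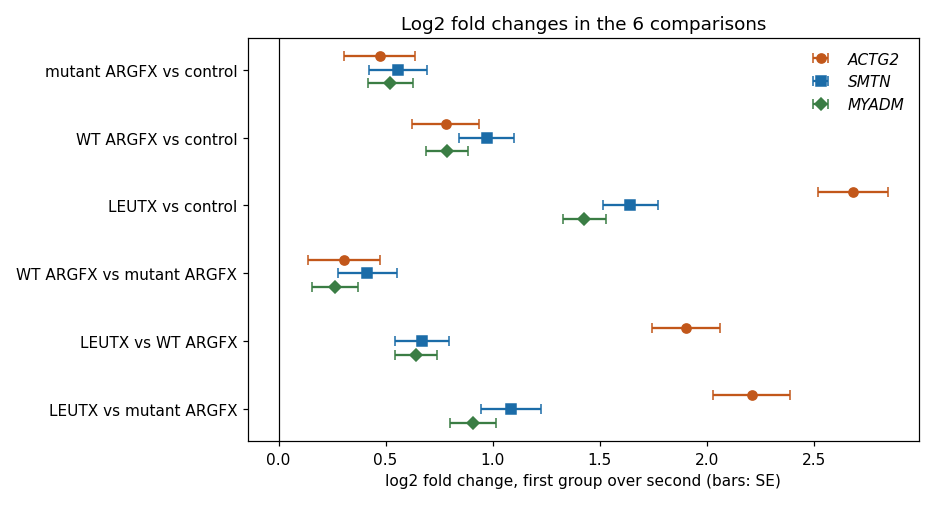
Log2 fold changes of the 3 genes in the 6 comparisons (x axis, first group over second), with bars for the SE. In the LEUTX comparisons ACTG2 lies between 1.90 and 2.68, to the right of SMTN and MYADM, while in the comparisons among ARGFX groups and control the 3 genes lie near each other.

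Ratios between genes within a library do not depend on the scaling of that library. The log2 ratio of ACTG2 to MYADM was 1.31 ± 0.206 (SD, n = 4) in control, 1.31 ± 0.215 (n = 4) with WT ARGFX and 1.28 ± 0.0432 (n = 3) with mutant ARGFX. In the 4 LEUTX samples it was 2.58 ± 0.0613, from 2.49 to 2.63, above the highest value of 1.61 elsewhere. The control, WT ARGFX and mutant ARGFX ratios overlapped, and the LEUTX ratios stood clear of them. The log2 ratio of ACTG2 to SMTN had its highest mean with LEUTX too, at 4.62 ± 0.3901 (n = 4), against 3.56 ± 0.567 in control (n = 4), 3.37 ± 0.346 with WT ARGFX (n = 4) and 3.49 ± 0.232 with mutant ARGFX (n = 3). There, however, LEUTX and control overlapped, since LEUTX reached down to 4.15 and control up to 4.33. The ratio of SMTN to MYADM overlapped between all groups, with means from -2.25 to -2.04.

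ACTG2 was set beside ACTA2, the alpha isoform of smooth muscle actin, which is the usual marker of myofibroblasts. ACTA2 was at 634, 859, 484 and 754 CPM in control and at 1923, 1826, 1799.7 and 2902 CPM in WT ARGFX replicates 1 and 2 and samples a and b. It was at 1292, 1289 and 1062 CPM with mutant ARGFX and at 2979, 3651, 3518 and 3831 CPM with LEUTX. The groups did not overlap, whereas mutant ARGFX and control did for ACTG2, and the order of the means was that of ACTG2. Over control, 12.9% of tested genes were separated upward with WT ARGFX, 11.6% with mutant ARGFX and 20.5% with LEUTX. The share was 6.57% for WT over mutant ARGFX, 17.2% for LEUTX over WT ARGFX and 23.6% for LEUTX over mutant ARGFX. The actins differed in size of response, however: ACTA2 had log2 fold changes over control of 1.63 with WT ARGFX, 0.83 with mutant ARGFX and 2.36 with LEUTX, where ACTG2 had 0.78, 0.47 and 2.68. Without sample b, ACTA2 was at 1.43 with WT ARGFX. ACTA2 was called higher with WT than with mutant ARGFX (log2 0.80, SE 0.194, adjusted p = 0.0411), as were 0.386% of tested genes and 10.8% of the WT ARGFX list. It was located only through that list, so its WT ARGFX values had a part in its choice and the call is not independent of them. The call was lost in 9 of the 15 fits that left out 1 sample: control replicates 1 and 4, WT ARGFX replicate 1 and sample b, mutant replicates 1, 2 and 3, and LEUTX replicates 2 and 3. Its log2 fold change there was lowest without sample b (0.60, adjusted p = 0.0675), and its adjusted p was highest without mutant replicate 3 (0.199).

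The log2 ratio of ACTG2 to ACTA2, a quantity chosen after the values were seen, separated all 4 groups. It was -0.83 ± 0.0206 (SD, n = 4) with LEUTX, -1.15 ± 0.136 (n = 4) in control, -1.51 ± 0.0727 (n = 3) with mutant ARGFX and -1.99 ± 0.0966 (n = 4) with WT ARGFX. The ratio was therefore lower than control in both ARGFX groups and higher than control with LEUTX. No sample of a group overlapped a sample of another: the control samples ranged from -1.35 to -1.05, the mutant samples from -1.60 to -1.46, the WT samples from -2.10 to -1.88 and the LEUTX samples from -0.85 to -0.81. The deposited counts of ACTG2 and ACTA2 were exactly whole in all 15 samples, but how reads shared by these similar genes were assigned was not tested. The ratio carries no test, because the pair was picked for it.

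**Figure D3:**
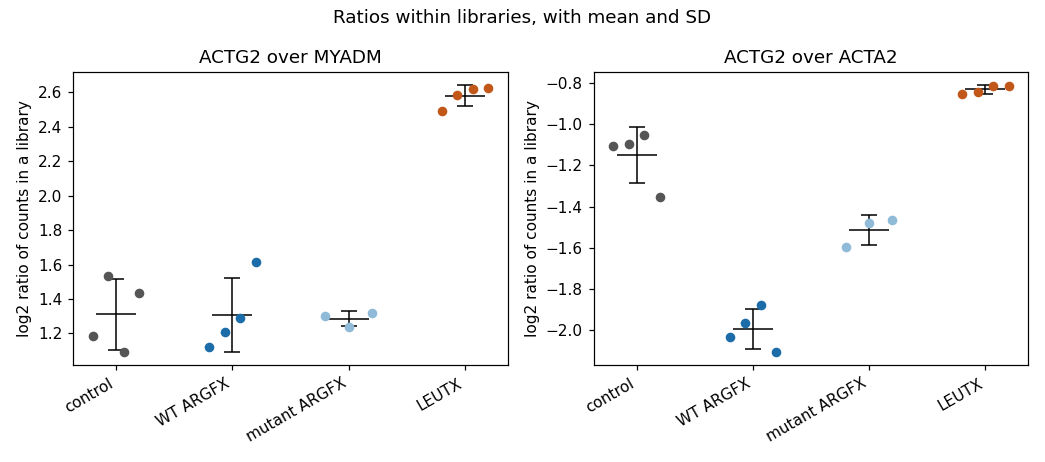
Log2 ratios of counts within each library (y axes, which differ between panels) for ACTG2 over MYADM and for ACTG2 over ACTA2 by group, with black bars for mean and SD. ACTG2 over MYADM is raised only in the LEUTX samples, at 2.49 to 2.63, and ACTG2 over ACTA2 falls into 4 groups without overlap.

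Beyond the actins, the contractile apparatus of smooth muscle was followed with a list of 38 genes, of which 10 could be located. They could be found only through the WT ARGFX list, so all 10 were called up with WT ARGFX by the choice, and none of the counts below is independent of that list. With LEUTX all 10 were called up, against 53.4% of that list and 12.8% of tested genes, with a median log2 fold change of 1.71 (median of all tested genes -0.03). ACTG2 and SMTN are among the 10 and may also have been chosen by LEUTX over control. That count and median are thus a description without a test. Against WT ARGFX, LEUTX gave 5 called up (ACTG2, SMTN, ACTA2, SYNC and IRAG1), against 15.5% of the list and 9.82% of tested genes, and the count was 5 in each fit that left out 1 sample. With mutant ARGFX 5 were called up over control, namely ACTA2, MYH10, LMOD1, SYNC and IRAG1, against 32.3% of the list and 1.26% of tested genes, and leaving out single samples gave from 2 to 7. Between LEUTX and mutant ARGFX 6 were called up, namely ACTG2, SMTN, ACTA2, LMOD1, SYNC and IRAG1, against 26.3% of the list and 10.3% of tested genes, and leaving out single samples gave 5 to 7.

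The genes of this list fell into different patterns. SYNC, which encodes syncoilin, a partner of intermediate filaments, was like ACTG2 far higher with LEUTX than in the other groups: 3.09 to 4.48 CPM in control, 7.06 to 8.73 with WT ARGFX, 5.99 to 7.70 with mutant ARGFX and 24.7 to 27.9 with LEUTX. Its log2 fold change between LEUTX and WT ARGFX was 1.71 (SE 0.121, adjusted p = 1.09e-08). Unlike ACTG2, it was called up with mutant ARGFX over control (0.87, adjusted p = 0.000906), and its mutant and WT ARGFX samples overlapped. LMOD1, encoding leiomodin, which nucleates actin filaments in smooth muscle, had about the same log2 fold change over control with WT ARGFX (1.71) as with LEUTX (1.77), and the difference between them was 0.06 (SE 0.179, adjusted p = 0.836). The non-muscle myosin heavy chains MYH9 and MYH10 likewise had log2 fold changes of 1.01 and 1.01 with WT ARGFX (1.17 and 1.18 without sample b) and 0.90 and 1.09 with LEUTX. CNN2, a calponin, and PDLIM2, a scaffold protein of actin filaments, were at 0.76 and 0.79 with WT ARGFX and at 0.94 and 0.77 with LEUTX.

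**Figure D4:**
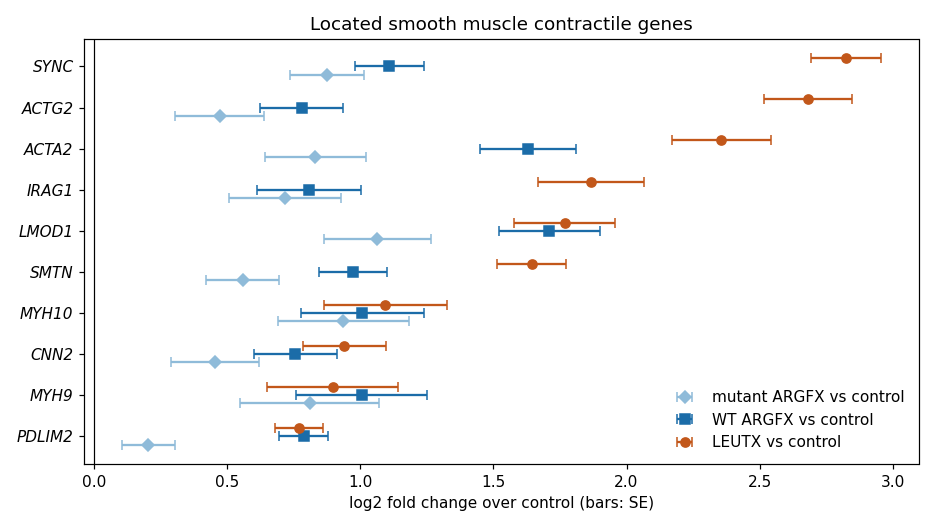
Log2 fold changes over control (x axis, bars for SE) of the 10 located genes of the smooth muscle contractile list with mutant ARGFX, WT ARGFX and LEUTX. The LEUTX values of SYNC, ACTG2, IRAG1, ACTA2 and SMTN lie to the right of their WT ARGFX values, whereas those of LMOD1, MYH10, MYH9 and PDLIM2 lie beside them.

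The other lists located fewer of their genes, or gave mixed results. Of 20 regulators of smooth muscle genes, 3 could be located: LMCD1, a coregulator of smooth muscle transcription, was called up with LEUTX over control (log2 1.203) and was called higher with WT than with mutant ARGFX (0.67), which reuses the WT ARGFX values that put it in the list, a call lost without WT ARGFX sample b (0.58), WT ARGFX replicate 1 (0.64) or mutant replicate 3 (0.56). KLF2, a transcription factor, was called up with LEUTX (0.63), and ARHGEF25, an activator of RhoA, was not (0.18). With LEUTX over control, 12.8% of tested genes and 53.4% of the WT ARGFX list were called up. For WT over mutant ARGFX the shares were 0.386% and 10.8%. Of 36 regulators of the actin cytoskeleton, 19 were located, all through the WT ARGFX list. With LEUTX 9 were called up, and 1 was called down, RAC3, a small GTPase (log2 -0.90), where 53.4% of that list was called up and 6.47% down. Relative to WT ARGFX, 7 of the 19 were called lower with LEUTX (ARHGEF25, RAC3, CDC42EP5, INKA1, CIT, RFLNB and IQGAP3) and 1 higher (EPB41L4B), where 28% of the list was called lower and 15.5% higher. None of the 10 contractile genes was called lower in that comparison. Between LEUTX and mutant ARGFX, 2 of the 19 were called up and 5 down (3 to 5 down when single samples were left out), where 26.3% of the list was called up and 17.2% down. The 10 tubulin and microtubule genes were themselves drawn from the WT ARGFX list, and the 6 called up with LEUTX were near the share of that list. The raft partners of MYADM and the other smoothelins could not be located, with 1 of 12 and 1 of 3 list genes found.

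The located fibroblast markers moved differently from the 3 genes between WT ARGFX and LEUTX. Their summed level was 48118 to 57506 CPM with WT ARGFX, 37247 to 43697 with mutant ARGFX and 29509 to 43495 with LEUTX. Of the 6 markers, COL3A1, COL5A1, POSTN and FBN1 were called lower with LEUTX than with WT ARGFX (log2 fold changes from -1.62 to -1.16), against 11.8% of tested genes and 28% of the WT ARGFX list, and COL1A1 and COL1A2, at -0.49 and -0.30, were not called. Against mutant ARGFX the same 4 were called lower with LEUTX (from -1.22 to -0.84), as were 12.1% of tested genes and 17.2% of that list, with COL1A1 at -0.09 and COL1A2 at 0.03. The 4 located smooth muscle markers, ACTG2 among them, summed to 867 to 1411 CPM in control, 2608 to 3856 with WT ARGFX, 1714 to 2022 with mutant ARGFX and 5057 to 6386 with LEUTX, most of it ACTA2. Without the actins, the sums were 149 to 186 CPM in control and 376 to 513 with LEUTX. They were 279 to 335 with WT ARGFX and 260 to 303 with mutant ARGFX, which overlapped. All 10 located markers are in the WT ARGFX list too, and their part in the levels of ACTG2, SMTN and MYADM was not tested.

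The genes with a symbol that lay nearest to each member were sought over the 15 samples by the root mean square difference in log2 CPM after subtraction of the control mean. For ACTG2 they were ACY1 (0.294), EPHX1 (0.310) and SYNC (0.337), where 2 genes without a symbol were nearer than SYNC and 1 of them nearer than ACY1. For SMTN they were MVB12B (0.195), PDK2 (0.212) and PRR16 (0.213), and 1 gene without a symbol was nearer than any of them, though not with a smaller prior count. For MYADM they were CAPN1 (0.137), PXDC1 (0.137) and TUBB6 (0.156), with none nearer among the 14263 genes compared. Only genes with a symbol could be named, so these are near genes of the WT ARGFX list. Among the members, SMTN and MYADM were 0.302 apart, nearer than ACTG2 to SMTN (0.661) or to MYADM (0.669).

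Within groups, SMTN ran opposite to ACTG2 and MYADM in the library with most ACTG2, a pattern picked out after the values were seen. In 4 of 4 groups the library with most ACTG2 was also the one with most MYADM and the one with least SMTN: control replicate 2, WT ARGFX sample b, mutant replicate 2 and LEUTX replicate 4. In control replicate 2, ACTG2 was 0.42 above its group mean on the log2 scale, MYADM 0.20 above and SMTN 0.34 below. In LEUTX replicate 4 the values were 0.16 above, 0.11 above and 0.29 below. Of all other tested genes, 8.51% were highest and 9.68% lowest in these libraries in all 4 groups, so the pattern is not particular to the 3 genes. ACTA2 was highest there in 3 of 4 groups, the exception being mutant ARGFX, where replicate 1 had most. MYH9, MYH10 and MAP1B, also picked after their values were seen, were lowest in these libraries in each of the 4 groups (MYH9 0.66 below the group mean in control replicate 2 and 0.65 below in WT ARGFX sample b). Their part in the spread of the 3 genes was not tested.

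**Figure D5:**
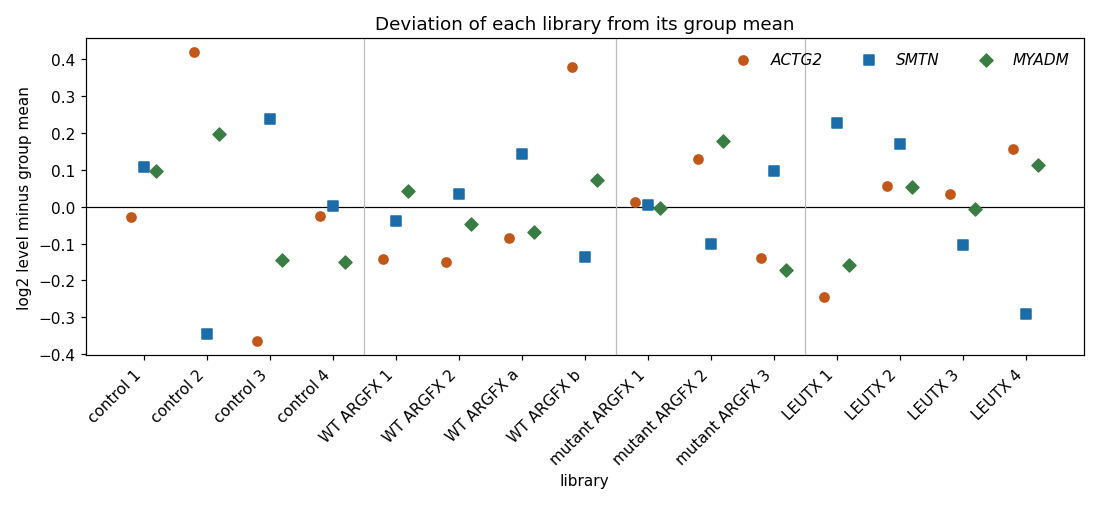
Log2 level of ACTG2, SMTN and MYADM in each library minus the mean of its group (y axis), with libraries on the x axis and groups divided by vertical lines. In control replicate 2, WT ARGFX sample b, mutant replicate 2 and LEUTX replicate 4, ACTG2 and MYADM lie above 0 and SMTN below.

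In the RefSeq gene table of the later assembly ARS-UCD2.0, DGUOK and STAMBP neighbour ACTG2 among protein-coding genes, and SELENOM follows SMTN. ACTG2 overlaps a pseudogene and a long noncoding RNA there. Whether the libraries were stranded is not given in the sources used here, so reads from overlapping transcripts cannot be told apart by strand.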

How the data were processed

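The authors trimmed the reads with Trimmomatic, pseudoaligned them with kallisto 0.46.1 to the ARS-UCD1.2 transcriptome with ETCHbox sequences added, and made gene totals with tximport. The values they deposited are expected counts without normalization (21665 genes, 15 samples, 93.1% of values exactly whole as deposited). Expected counts were rounded and fitted with edgeR 4.0.16 in R 4.3.3 (filter on low counts, TMM, quasi-likelihood test, 1 fit to all samples, Benjamini-Hochberg adjustment over 14264 genes). The SE is the log2 fold change divided by the root of the F statistic. Calls needed an adjusted p under 0.05 and a fold over 1.5. The script was tested on simulated data. All samples of a group differed by more than sampling noise, and intervals cover the spread between samples.

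The members and lists were chosen with earlier results of these data known. Genes named were the members, the transfected genes, located list and marker genes, and the 3 nearest genes with a symbol. Symbols came from 220 of the 232 rows of the WT ARGFX list, and the RefSeq table matched no identifier. Alternatives were DESeq2 1.42.0 and its size factors, total counts, no filter, the compared groups alone, a replicate block, a mean CPM over 5, no fold threshold, another prior count and each sample left out. The last was extended to the gene lists, and a fit to the numbered samples added, after seeing the data. Planned promoter and protein descriptions were not analysed here.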

Additional observations from a re-analysis of the deposited data

Results flagged for a closer look

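These values are given because 1 sample lay far from the rest of its group, by Dixon's gap test at 95%. There were 10 among the 128 groups of 4 samples checked, where chance gives about 6.4.

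Of these, 7 were in WT ARGFX sample b. ACTG2 was at 675 CPM there (468 to 489.6 in the other 3) and ACTA2 at 2902 (1799.7 to 1923). MYH9 was at 909 CPM (1638 to 1689), MYH10 at 259.6 (481 to 497), MAP1B at 66.4 (204 to 218), TNIK at 9.19 (13.8 to 14.7) and KLF2 at 48.8 (38.2 to 40.0). The actins and KLF2 were higher and the other 4 genes lower than in the rest of the group.

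In the other 3, ARGFX was at 4506 CPM in WT ARGFX replicate 1 (3039 to 3176), EPB41L4B at 21.4 CPM in LEUTX replicate 3 (23.4 to 23.7) and TUBB2B at 86.9 CPM in control replicate 3 (119.6 to 126).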

How the results depend on the processing

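No log2 fold change of ACTG2, SMTN or MYADM changed sign under any alternative, and 389 of their values counted as unchanged. For WT ARGFX and LEUTX over control, unchanged meant a shift smaller than the larger SD of the compared groups. In the other comparisons it meant the same side of an adjusted p of 0.05. The exceptions were in mutant ARGFX against control. ACTG2 passed with total counts only (0.46, adjusted p = 0.0386), with the replicate block (0.51, 0.0363) and on the numbered samples with no replicate block, added after seeing the data (0.47, 0.0434), and not with DESeq2 (0.46, 0.0532). Leaving out single samples gave 0.36 to 0.63 for ACTG2 and 0.46 to 0.64 for SMTN. The cause was not tested.

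Replicate numbers gave no clear sign of pairing between groups: deviations of same-numbered samples had a mean correlation of 0.0105 over 16 pairs, from -0.298 to 0.375. Differently numbered samples had a mean of -0.0030 over 46 pairs, from -0.385 to 0.374. Correlations over 0.1 were found in 6 of the 16 and 14 of the 46 pairs. The replicate block could be fitted only to the numbered samples, without WT ARGFX samples a and b. Between WT and mutant ARGFX, genes called up numbered 55 in all samples, 37 in the numbered samples without the block and 28 with it, and ACTG2 was at 0.31, 0.14 and 0.08.

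Requiring a mean CPM over 5 gave, up and down, 575 and 606 genes for WT ARGFX against control (877 and 978 without), 1145 and 1263 for LEUTX against control (1827 and 1990), 840 and 1088 for LEUTX against WT ARGFX (1401 and 1686) and 923 and 1116 for LEUTX against mutant ARGFX (1469 and 1729). It gave 119 up for mutant ARGFX against control (180) and 36 up for WT against mutant ARGFX (55). Without the fold threshold they were 2247 and 2167, 3155 and 3536, 2514 and 2998, and 2471 and 2885 in that order, with 607 and 854 for mutant ARGFX against control (180 and 366). Leaving out single samples gave 105 to 250 genes up there. With a prior count of 0.5 the 3 nearest genes with a symbol were the same for each member, but PXDC1 and CAPN1 changed places for MYADM, no gene without a symbol was nearer than MVB12B to SMTN, and 3 rather than 2 were nearer than SYNC to ACTG2.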
